A study of Homo sapiens with 8 samples.

Results

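The ABC (ATP-binding cassette) transporter genes were taken as the rows of the deposited count table whose symbol is ABC, a subfamily letter from A to G and a number, and 45 of the 30434 genes in the table met this rule. SKBR3, an ERBB2-amplified (HER2-positive) human breast cancer line, was profiled by RNA sequencing, with 4 control libraries labelled wild type and 4 libraries of cells with knockdown of FOXA1. FOXA1 is a forkhead pioneer factor that opens chromatin for other regulators in luminal breast cells. The knockdown cells were a stable line made with lentiviruses that carried 3 short hairpin RNAs against FOXA1, so each difference sets 1 stable line against the control line. Both groups were grown in the same serum-containing medium. Whether the controls received a control vector, and whether replicates came from separate cultures, is not given in the sources used here. The p-values therefore measure the spread between these libraries, which may be technical.

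ABC proteins are built around a pair of nucleotide-binding domains that bind and hydrolyse ATP. In most of them this work moves a substrate across a membrane: lipids for many ABCA proteins and for ABCG1, drugs and conjugated metabolites for several ABCB, ABCC and ABCG2 proteins, and fatty acids into the peroxisome for most ABCD proteins. ABCE1 and the ABCF proteins lack membrane domains and act on the ribosome instead. In breast cancer the family is known mostly for drug efflux, and ABCG2 was named the breast cancer resistance protein after the drug-selected cells in which it was found.

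The control libraries held between 21838121 and 23786684 counts and the knockdown libraries between 19087878 and 23503753. Levels are given as CPM, counts scaled to 1000000 per library. FOXA1 itself was at 192 ± 1.65 CPM in control and 3.96 ± 0.340 in knockdown (SD, n = 4 each). Of the 9 breast epithelium markers, 4 rose (KRT8, KRT18, EPCAM and TFAP2A) and 5 fell (KRT7, KRT19, ERBB2, TFAP2B and FOXA1). All 5 falls were at least 2-fold, against 13.4% of all genes tested, and no rise was. ERBB2 went from 7308 ± 365 to 1340 ± 53 CPM (SD, n = 4 each). The summed level of the 9 markers ran from 18580 to 20670 CPM in control and from 11600 to 12500 in knockdown. Markers of other cell types were low: the 6 fibroblast markers summed to between 5.27 and 6.98 CPM in control and between 10.8 and 12.0 in knockdown, the 4 leukocyte markers to between 4.99 and 6.34 and between 0.787 and 1.79, and the 4 endothelial markers to between 20.7 and 22.1 and between 19.8 and 22.4. The leukocyte marker PTPRC had 5 counts over all controls and 2 over all knockdown libraries, while CD68, a leukocyte marker too, had 436 and 53. Of the fibroblast markers, DCN had 1 and 2, COL3A1 2 and 384, PDGFRB 36 and 255, and COL1A1 473 and 387. Of the endothelial markers, VWF had 459 and 75 counts, and CDH5 was at 16.1 CPM in control and 20.1 in knockdown. The part of these markers in the results was not tested. In bulk RNA, fewer cells of a type and less RNA per cell cannot be told apart. Among the controls, replicate 3 was the least like the rest, with a chi-square per degree of freedom of 4.70 to 6.05 in its pairs against 2.13 to 2.34 in the other control pairs.

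The promoters of the members with the largest changes, and of a member that holds a forkhead motif, are shown to set the sequences beside the values. The windows run from 250 bases before to 50 bases after the RefSeq start on GRCh38.p14, a start that need not be the one used in SKBR3. ABCG2 (chr4:88231577-88231876, minus strand) had the largest rise among the members, ABCB1 (chr7:87713246-87713545, minus strand) the next, ABCC11 (chr16:48247490-48247789, minus strand) the largest fall, and ABCE1 (chr4:145098061-145098360, plus strand) carries the motif. Capitals mark matches to the forkhead motif, searched as TGTTTAC or as TGTTTGC, and likewise as TATTTAC or as TATTTGC, on both strands.
ABCG2: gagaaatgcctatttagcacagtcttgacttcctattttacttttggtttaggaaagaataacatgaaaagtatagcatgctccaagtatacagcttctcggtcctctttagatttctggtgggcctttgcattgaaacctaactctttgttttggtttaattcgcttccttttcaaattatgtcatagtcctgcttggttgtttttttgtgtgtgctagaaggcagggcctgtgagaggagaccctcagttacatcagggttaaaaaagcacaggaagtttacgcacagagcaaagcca
ABCB1: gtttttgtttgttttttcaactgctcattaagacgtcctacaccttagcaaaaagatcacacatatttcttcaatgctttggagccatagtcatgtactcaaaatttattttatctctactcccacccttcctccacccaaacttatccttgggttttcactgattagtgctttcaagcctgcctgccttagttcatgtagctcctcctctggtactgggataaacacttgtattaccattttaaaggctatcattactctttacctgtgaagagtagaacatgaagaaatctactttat
ABCC11: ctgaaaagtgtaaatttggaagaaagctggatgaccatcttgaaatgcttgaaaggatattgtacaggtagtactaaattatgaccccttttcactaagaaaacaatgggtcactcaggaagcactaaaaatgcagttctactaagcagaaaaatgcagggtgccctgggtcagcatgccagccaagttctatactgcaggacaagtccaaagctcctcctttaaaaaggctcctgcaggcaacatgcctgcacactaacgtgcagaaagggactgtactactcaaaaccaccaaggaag
ABCE1: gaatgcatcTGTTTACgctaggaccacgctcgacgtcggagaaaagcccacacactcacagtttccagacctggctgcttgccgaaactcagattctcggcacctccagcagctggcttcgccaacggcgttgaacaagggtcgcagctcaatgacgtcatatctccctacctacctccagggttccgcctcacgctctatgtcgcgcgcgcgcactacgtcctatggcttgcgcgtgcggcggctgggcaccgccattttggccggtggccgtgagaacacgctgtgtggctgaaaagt

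A window was matched by symbol for 35 of the 45 members. The forkhead motif was present in 4 of the 35 (11.4%), against 12.2% of 27305 promoter windows of the same length. The 4 were ABCA6, ABCB11, ABCE1 and ABCF1, at positions -184, -48, -241 and -181 from the start. None of the 4 was among the members called with a change of at least 2-fold, but ABCA6 had too few counts to be tested. The windows of ABCG2, ABCB1 and ABCC11 held no match. The GC box GGGCGG, on both strands, was in 18 of the 35 windows (51.4%) against 44.6% of all. It was absent from the windows of ABCG2, ABCB1, ABCC11 and ABCA12, which had 40.3%, 37.7%, 43.7% and 48.7% G and C. It was absent too from those of ABCC4 and ABCC6, which had 79.7% and 69.0%. It was present 3 times in the window of ABCA1, 2 times in that of ABCA3 and 6 times in that of ABCB9, at 62.7%, 78.0% and 75.3% G and C. A match is a string of letters and not a measured binding site.

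The filter on low counts left 34 of the 45 members to test. At an adjusted p under 0.05 (edgeR's quasi-likelihood test, Benjamini-Hochberg over 16430 genes), 28 of the 34 were called (82.4%), against 77.1% of all genes tested. The calls divided into 17 lower in knockdown (against 37.7% of all genes) and 11 higher (32.4%, against 39.4%). Changes of at least 2-fold were called lower for 7 members (20.6%, against 13.4%) and higher for 5 (14.7%, against 14.9%). For 28 tested members the CPM ranges of control and knockdown did not overlap (82.4%), against 72.0% of all genes. These 28 hold ABCC2, which was not called, and leave out ABCE1, which was called. The share called and the share at least 2-fold higher lie near those of all genes tested. The median log2 fold change was -0.07 over the 34 members and 0.02 over all genes, and the sign of the members' median turned with library-size scaling and with a stricter filter on low counts. The median size of the change, regardless of sign, was 0.69 against 0.51. By subfamily, the counts lower and higher were 5 and 2 of 8 tested for ABCA, 4 and 2 of 8 for ABCB, 6 and 2 of 9 for ABCC, 0 and 2 of 3 for ABCD, 1 and 1 of 3 for ABCF, and 0 and 2 of 2 for ABCG, and ABCE1 was lower.

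**Figure D1:**
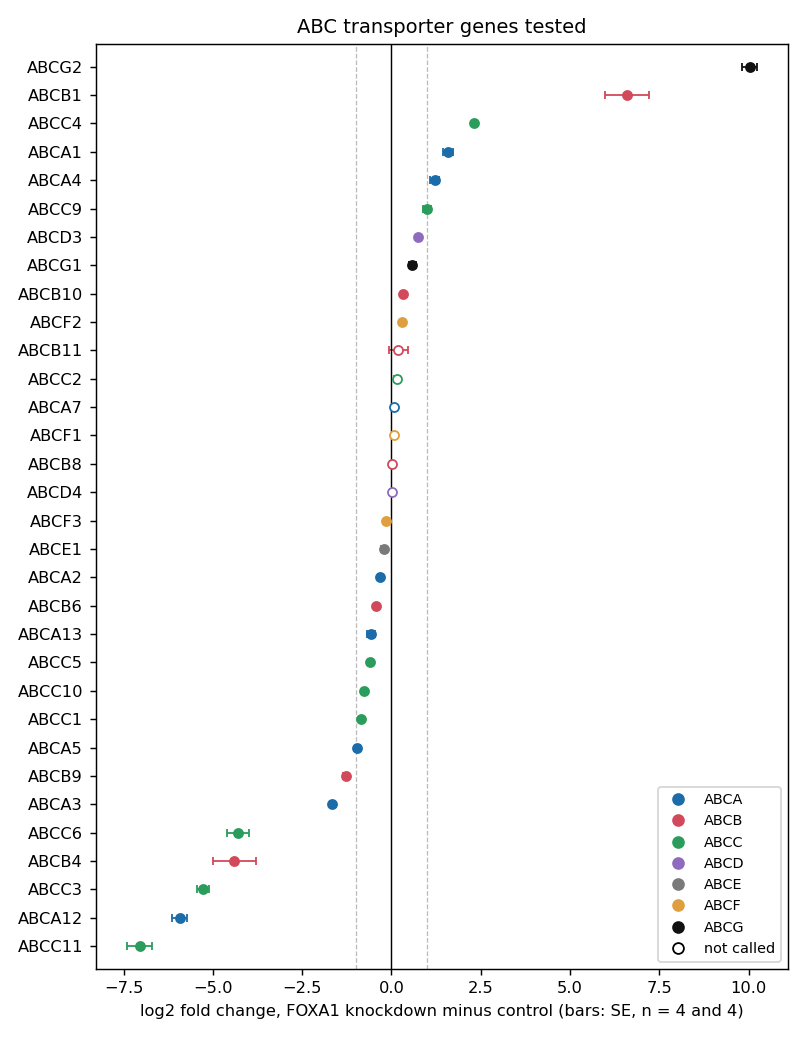
Log2 fold change (knockdown minus control) of the tested ABC genes reported here, coloured by subfamily, with the standard error over 4 and 4 libraries; open circles mark the 6 genes that were not called and dashed lines mark 2-fold. ABCG2 at 10.03 and ABCC11 at -7.05 lie at the ends.

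The multidrug efflux pumps ABCG2 and ABCB1 went from near the limit of detection in control cells to clear expression in knockdown cells, while ABCC1 fell and ABCC4 rose. ABCG2 (chr4:88090264-88231322, minus strand, GENCODE 29 on GRCh38) encodes a transporter that acts as a dimer and exports drugs, porphyrins and urate. In replicate order, its counts were 11, 6, 7 and 6 in control and 8342, 8838, 6984 and 8019 in knockdown. Every knockdown library was far above every control library. The level was 0.342 ± 0.113 CPM in control and 361 ± 7.56 in knockdown (SD, n = 4 each), a ratio of summed counts of 1060 with an exact 95% interval of 742 to 1571 that covers counting error only. On the log2 scale it rose by 10.03 ± 0.21 (SE, adjusted p 4.16e-32, edgeR), which ranked 32 from the top among 16430 genes. For ABCG2, as for the other 11 members called with a change of at least 2-fold and for ABCC1, an exact two-sided permutation test gave 0.0286, the smallest p that 4 against 4 allows.

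ABCB1 (chr7:87503633-87713323, minus strand) encodes P-glycoprotein, the classical multidrug pump of the plasma membrane. Its counts were 3, 2, 0 and 2 in control and 199, 198, 169 and 169 in knockdown. The groups were well apart, although the knockdown level was only 8.25 ± 0.354 CPM (SD, n = 4) and thus far below that of ABCG2. The ratio of summed counts was 104 (exact 95% interval 50.1 to 259), and the fitted log2 fold change of 6.60 had an adjusted p of 9.64e-19 (edgeR). ABCC1 (MRP1, an exporter of glutathione conjugates) was at 135, 138, 137 and 136 CPM in control and 72.7, 78.2, 71.8 and 77.7 in knockdown. It therefore fell in every library, by 0.86 ± 0.03 on the log2 scale (SE, adjusted p 1.59e-16, edgeR). ABCC4 (MRP4, an exporter of cyclic nucleotides and prostaglandins) was at 3.85, 3.63, 3.56 and 3.92 CPM in control and 18.8, 18.4, 18.8 and 18.9 in knockdown. It rose by 2.32 ± 0.03 on the log2 scale (SE, adjusted p 4e-19, edgeR) with no overlap.

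Other ABCC members fell far, and ABCC11 had the largest fall of the tested members. ABCC11 (chr16:48166910-48247568, minus strand), an exporter of lipophilic anions that acts in apocrine glands and sets the type of ear wax, had 789, 781, 739 and 759 counts in control and 7, 9, 2 and 5 in knockdown. Its level went from 34.9 ± 1.49 to 0.250 ± 0.114 CPM (SD, n = 4 each), and the ratio of summed counts was 135 (exact 95% interval 89.8 to 213). The fitted log2 fold change was -7.05 ± 0.35 (SE, adjusted p 9.77e-25, edgeR). ABCC3 (MRP3, chr17:50634777-50692252, plus strand), an exporter of glucuronides and bile salts, had 861, 774, 802 and 908 counts in control and 26, 17, 18 and 26 in knockdown. That is a fall from 37.9 ± 1.96 to 0.980 ± 0.224 CPM (SD, n = 4 each), or -5.27 on the log2 scale (adjusted p 2.63e-24, edgeR). ABCC6, which mediates ATP release from liver cells, had 117, 112, 117 and 130 counts in control and 4, 9, 3 and 8 in knockdown. All knockdown libraries were below all controls, with a ratio of 20.1 (exact 95% interval 13.3 to 31.6). ABCC6 has near-identical pseudogenes, so the split of its reads is uncertain.

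The remaining tested ABCC genes changed less. ABCC5 (MRP5, an exporter of cyclic nucleotides) fell by 0.59 on the log2 scale, from 196 ± 6.62 to 130 ± 6.35 CPM, and ABCC10 (MRP7, a drug exporter) fell by 0.77, from 25.0 ± 1.56 to 14.7 ± 0.378 (SD, n = 4 each). ABCC9 encodes SUR2, a regulatory subunit of potassium channels. It rose from 6.28 ± 0.826 to 12.5 ± 1.22 CPM and, at a log2 fold change of 0.99, lay just inside 2-fold and so just outside the group of larger changes. ABCC2 (MRP2, an apical exporter of conjugates) was not called (adjusted p 0.201, edgeR). Its controls lay between 4.226 and 4.826 CPM and its knockdown libraries between 4.834 and 6.009, so the groups narrowly did not overlap. Its highest value, in knockdown replicate 3, stood apart from the other knockdown libraries.

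**Figure D2:**
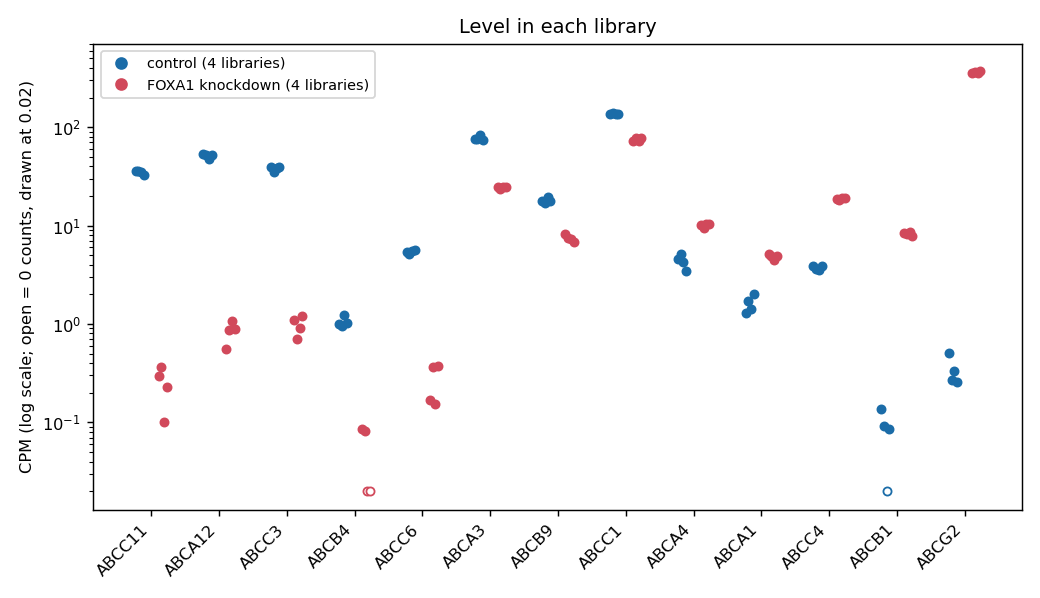
CPM in each library (log axis) of the 12 ABC genes called with a change of at least 2-fold and of ABCC1, 4 control (blue) and 4 knockdown (red) libraries per gene; open circles are libraries with 0 counts, drawn at 0.02. The groups do not overlap for any of these 13 genes.

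Among the lipid transporters of subfamily A, ABCA12 and ABCA3 fell and ABCA1 and ABCA4 rose. ABCA12 (chr2:214931542-215138428, minus strand) loads glucosylceramides into the lamellar granules of epidermal cells. It had 1162, 1140, 992 and 1212 counts in control and 13, 21, 21 and 19 in knockdown. Every knockdown library held a small remainder of the control level, and the mean went from 51.1 ± 2.71 to 0.840 ± 0.214 CPM (SD, n = 4 each). ABCA12 thus had a log2 fold change of -5.93 ± 0.20 (SE, adjusted p 1.5e-25, edgeR). ABCA3, the phospholipid transporter of lamellar bodies in lung surfactant cells, was at 76.6, 75.9, 83.2 and 73.4 CPM in control and 24.7, 23.4, 24.5 and 24.8 in knockdown. It fell by 1.67 on the log2 scale (adjusted p 2.37e-20, edgeR), and the controls stayed well above the knockdown libraries. ABCA1, which passes cholesterol and phospholipid to apolipoproteins, was at 1.28, 1.73, 1.43 and 2.03 CPM in control and 5.14, 4.96, 4.48 and 4.86 in knockdown. It rose by 1.58 (adjusted p 2.93e-10, edgeR) without overlap, from a low level. ABCA4, the retinoid flippase of photoreceptors, was at 4.63, 5.08, 4.27 and 3.49 CPM in control and 10.1, 9.50, 10.4 and 10.4 in knockdown, a rise of 1.21 (adjusted p 6.18e-11, edgeR).

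Of the other tested ABCA genes, ABCA5 fell by 0.96 on the log2 scale, ABCA13 by 0.58 and ABCA2 by 0.32, and ABCA7 had a log2 fold change of 0.08 and was not called (adjusted p 0.324, edgeR). ABCA2 is a lysosomal lipid transporter of myelin-forming cells, and ABCA7 is a lipid transporter linked to Alzheimer's disease. When the median shift of the 50 nearest tested genes on the chromosome was taken out, the fall of ABCA13 lost its call (adjusted p 0.0641, edgeR) and the log2 fold change of ABCA2 turned to 0.01. The same offset brought ABCA7 past the threshold at 0.36 (adjusted p 5.99e-05, edgeR), as did library-size scaling at 0.16 (adjusted p 0.0416, edgeR). ABCG1, which exports cholesterol to high-density lipoprotein, rose by 0.58, with 14.2 to 17.7 CPM in the controls and 21.0 to 24.9 in the knockdown libraries (adjusted p 9.13e-08, edgeR).

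The list of 18 sterol efflux and LXR genes held 17 tested genes, of which 9 fell and 8 rose, where 37.7% of all genes fell and 39.4% rose. LXR is the nuclear receptor that senses oxysterols and drives ABCA1 and ABCG1. SREBF1, the lipogenic factor that LXR also drives, had the largest fall in the list among genes at 1 CPM or more, from 406 ± 27.2 to 173 ± 8.26 CPM (log2 fold change -1.23, adjusted p 2.57e-15, edgeR). LCAT, which esterifies cholesterol on lipoproteins, had the largest rise, from 0.430 ± 0.134 to 3.27 ± 0.393 CPM (2.91, adjusted p 5.13e-12, edgeR).

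In subfamily B, the neighbours ABCB1 and ABCB4 moved in opposite directions. ABCB4, the phosphatidylcholine flippase of the bile canaliculus, lies 23197 bases from ABCB1 on the same strand of chromosome 7. It had 22, 21, 26 and 24 counts in control and 2, 2, 0 and 0 in knockdown. No knockdown library came near a control, with a ratio of 23.5 (exact 95% interval 8.89 to 88.2) and an adjusted p of 3.34e-09 (edgeR). ABCB9, the lysosomal peptide transporter, was at 17.95, 17.02, 19.52 and 17.97 CPM in control and 8.25, 7.42, 7.23 and 6.76 in knockdown. It fell by 1.29 (adjusted p 5.61e-14, edgeR), but its exons share 1078 bases with ARL6IP4 and 1481 with OGFOD2 on the opposite strand, and use of strand in the counting is not given in the sources used here, so its value is uncertain. ABCB10, a mitochondrial member that supports haem synthesis, rose by 0.31 on the log2 scale. ABCB6, a porphyrin transporter, fell by 0.44, and it shares 2864 exon bases with another gene of the same strand. ABCB8, a mitochondrial inner membrane transporter, had a log2 fold change of 0.01 (adjusted p 0.89, edgeR), and ABCB11, the bile salt export pump, one of 0.19 at about 1 CPM (adjusted p 0.488, edgeR); both were not called. Of 10 iron-sulfur and haem genes, 4 rose and 2 fell, and the share that rose is near the 39.4% of all genes (37.7% fell). FECH, which inserts iron into haem, had the largest rise (57.3 ± 1.83 to 195 ± 4.55 CPM, log2 fold change 1.77, adjusted p 2.52e-23, edgeR), and NFS1, the cysteine desulfurase, the largest fall (-0.23, adjusted p 3.15e-05, edgeR).

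ABCD3 rose, and 9 of 14 genes of peroxisomal fatty acid oxidation fell. ABCD3, which imports branched-chain and dicarboxylic acyl-CoA into the peroxisome, went from 118 ± 6.33 to 198 ± 6.72 CPM (SD, n = 4 each), a rise of 0.75 on the log2 scale (adjusted p 5.73e-15, edgeR). ABCD4, a lysosomal vitamin B12 transporter, was not called (log2 fold change 0.00, adjusted p 0.975, edgeR), but after removal of the regional shift its value was 0.21 (adjusted p 0.00345, edgeR). Set against all genes tested, of which 37.7% fell, 13.4% at least 2-fold, and 39.4% rose, the 14 oxidation genes gave 9 falls, 4 of them at least 2-fold, and 3 rises, with a median log2 fold change of -0.59 against 0.02 over all genes. ACOX2, the branched-chain acyl-CoA oxidase, had the largest fall, with 292 counts over the controls and 3 over the knockdown libraries (adjusted p 1.11e-14, edgeR). SLC27A2, another of the 4 falls of at least 2-fold, had 67 and 12 counts. ACOX2 and SLC27A2 passed the filter on low counts only through the control group. The size of the falls and the median therefore depend in part on the filter. ACBD5, which tethers peroxisomes to the endoplasmic reticulum, had the largest rise (0.39, adjusted p 1.81e-08, edgeR).

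The members that act on the ribosome were abundant, and their log2 fold changes lay between -0.21 and 0.30. ABCE1, which splits ribosomes after termination, was at 217, 215, 180 and 214 CPM in control and 182, 179, 178 and 173 in knockdown. The low control was replicate 3, and it made the groups overlap. ABCE1 was called lower (log2 fold change -0.21 ± 0.07, SE, adjusted p 0.00102, edgeR), with an exact permutation p of 0.0571. Without control replicate 3 the value was -0.28 (adjusted p 4.32e-09, edgeR), and with the regional shift removed it turned to 0.16 (adjusted p 0.00844, edgeR). ABCF1, which takes part in translation start, was at 217, 229, 228 and 207 CPM in control and 233, 232, 223 and 237 in knockdown. It was not called (0.07, adjusted p 0.0894, edgeR), yet was called higher without control replicate 3 (adjusted p 0.0334, edgeR) or without knockdown replicate 3 (adjusted p 0.046, edgeR). It was also called higher with library-size scaling (0.15, adjusted p 0.000416, edgeR), with upper-quartile scaling (0.13, adjusted p 0.00362, edgeR) and at a mean of at least 50 counts (0.08, adjusted p 0.0384, edgeR), and it turned to -0.15 with the regional shift removed. ABCF2 rose by 0.30 and shares 1914 exon bases with a read-through gene of the same strand. ABCF3 fell by 0.15, a call that was lost with library-size scaling (adjusted p 0.102, edgeR) and a direction that turned to 0.03 with the regional shift removed. In the list of 9 genes of ribosome recycling and translation start, 6 rose and 2 fell, against 39.4% and 37.7% of all genes. GSPT2, a copy of the release factor gene GSPT1, had no counts in control and 257 over the knockdown libraries, at least 84.7-fold higher against a floor of 3 counts over the control group. GSPT2 passed the filter on low counts only through the knockdown group, so its place among the 6 rises depends on that filter. GSPT1 had the largest fall (-0.33, adjusted p 7.84e-10, edgeR).

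The 11 members below the filter were ABCA6, ABCA8, ABCA9, ABCA10, ABCB5, ABCC8, ABCC12, ABCD2, ABCG4, ABCG5 and ABCG8, and they were not tested across genes. ABCC12, which lies 10891 bases from ABCC11 on the same strand, had 9, 7, 6 and 5 counts in control and 0 in each knockdown library, at least 9.11-fold lower against 3 counts over the knockdown group. ABCG4, a sterol transporter of the brain, had 5, 8, 7 and 6 counts in control and 1, 1, 2 and 1 in knockdown. ABCB5, known from melanoma cells, had 5, 6, 6 and 5 counts in control and 16, 16, 8 and 9 in knockdown. The other 8 had at most 10 counts in any library. ABCC12, ABCG4 and ABCB5 were singled out after their values were seen.

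Levels of different genes were compared as CPM per kilobase of exon. In control the highest were ABCF1 at 63.3 ± 2.94, ABCE1 at 52.6 ± 4.54, ABCF3 at 36.6 ± 1.06 and ABCD3 at 31.5 ± 1.69 CPM per kilobase (SD, n = 4). In knockdown ABCG2 came first at 75.0 ± 1.57, ahead of ABCF1 at 66.4 ± 1.73, ABCD3 at 53.1 ± 1.80 and ABCE1 at 45.4 ± 0.918. ABCG2 had ranked 34 of the 45 members in control, at 0.0710 ± 0.0234. The exon length is the union of annotated exons, so the order rests on which transcripts the cells use. Summed over the 45 members, the level was 1774 ± 15.1 CPM in control and 1906 ± 12.5 in knockdown, and without ABCG2 it was 1774 ± 14.6 and 1545 ± 8.76 (SD, n = 4 each). ABCG2 made up 0.0192% ± 0.00622 of all ABC counts in control and 18.9% ± 0.318 in knockdown. The share of subfamily C went from 25.4% ± 0.399 to 13.5% ± 0.430 and that of subfamily A from 16.9% ± 0.390 to 8.75% ± 0.260.

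**Figure D3:**
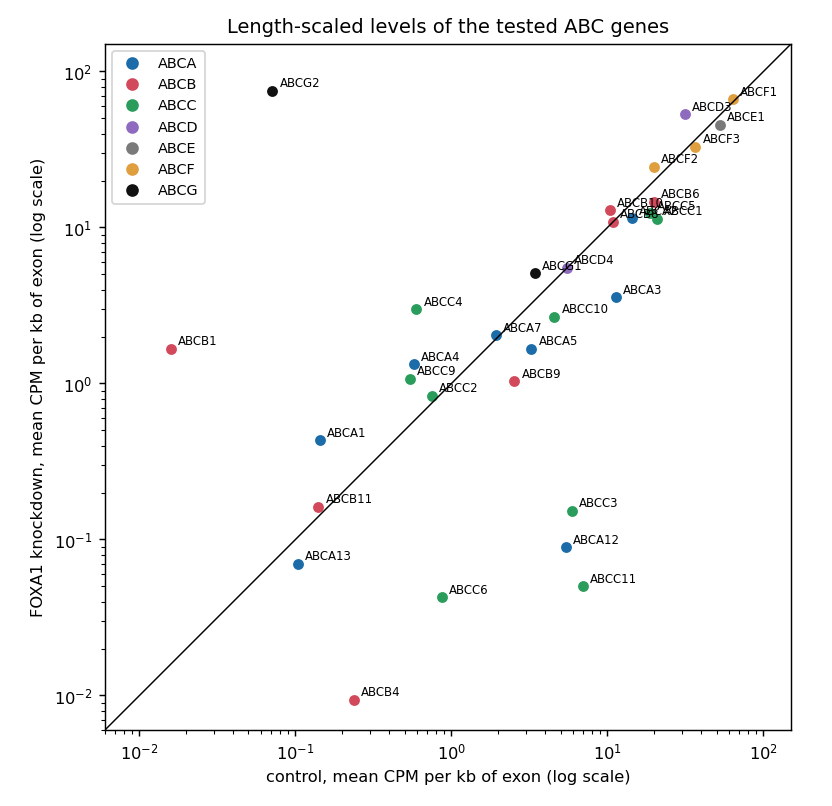
Mean CPM per kilobase of exon in control (x, log axis) and knockdown (y, log axis) for the tested ABC genes reported here, coloured by subfamily; the line marks equal levels. ABCG2 stands at 0.0710 in control and 75.0 in knockdown, while ABCC11, ABCA12 and ABCC3 lie far below the line.

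Genes beside ABCG2, ABCB1, ABCC11, ABCA12, ABCC3 and ABCC4 on the chromosome were read from the same fit, taking the 5 nearest tested protein-coding genes on each side. These sets spanned from 756 kilobases around ABCC3 to 5630 around ABCA12 and 9549 around ABCC4. Over all genes tested, 37.7% were called lower and 39.4% higher, so 4 of 10 in either direction is near the share of all genes. Of the 10 around ABCG2, 5 were called higher, 4 of them at least 2-fold, against 14.9% of all genes. HERC5, an ISG15 ligase, had a log2 fold change of 8.31 (0.0803 ± 0.0681 to 27.05 ± 1.04 CPM, SD, n = 4 each). It passed the filter on low counts only through the knockdown group, so the size of its rise is uncertain. PKD2, a polycystin channel, had a log2 fold change of 5.73 (1.44 ± 0.256 to 76.2 ± 3.37 CPM, SD, n = 4 each). HSD17B11, a lipid droplet dehydrogenase, had one of 4.76, and HERC6 one of 3.03. PPM1K, the nearest of the 10 by gene start, was not called (0.10, adjusted p 0.543, edgeR), and NUDT9, KLHL8 and C4orf36 were called lower. Around ABCB1, 2 of 10 neighbours were called higher and 5 lower. Around ABCC11, 4 were called lower and 4 higher, and LONP2, which starts closest, fell by 0.45. Around ABCA12, 6 were called lower, 4 of them at least 2-fold (against 13.4% of all genes), and 2 higher. CPS1, which starts the urea cycle, was at -4.57 and LANCL1, a glutathione-binding protein, at -2.68. Of the 10, CPS1 and LANCL1 start farthest from ABCA12. By gene start ATIC was nearest and was called higher (0.81), and FN1 came next and was called lower (-1.57). BARD1 followed and was not called (0.08, adjusted p 0.239, edgeR). Around ABCC3, 4 were called lower, with ACSF2, a fatty acid-CoA ligase, at -7.38 (17.7 ± 0.650 to 0.0996 ± 0.0373 CPM, SD, n = 4 each), and 6 higher. Around ABCC4, which rose, 9 of 10 were called lower. The median over the 50 nearest genes was 0.09 for ABCG2, -0.23 for ABCB1, 0.04 for ABCC11, 0.07 for ABCA12, 0.26 for ABCC3 and -0.55 for ABCC4. Removing it left all 12 members called with a change of at least 2-fold, and ABCC1, in the same direction and called.

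**Figure D4:**
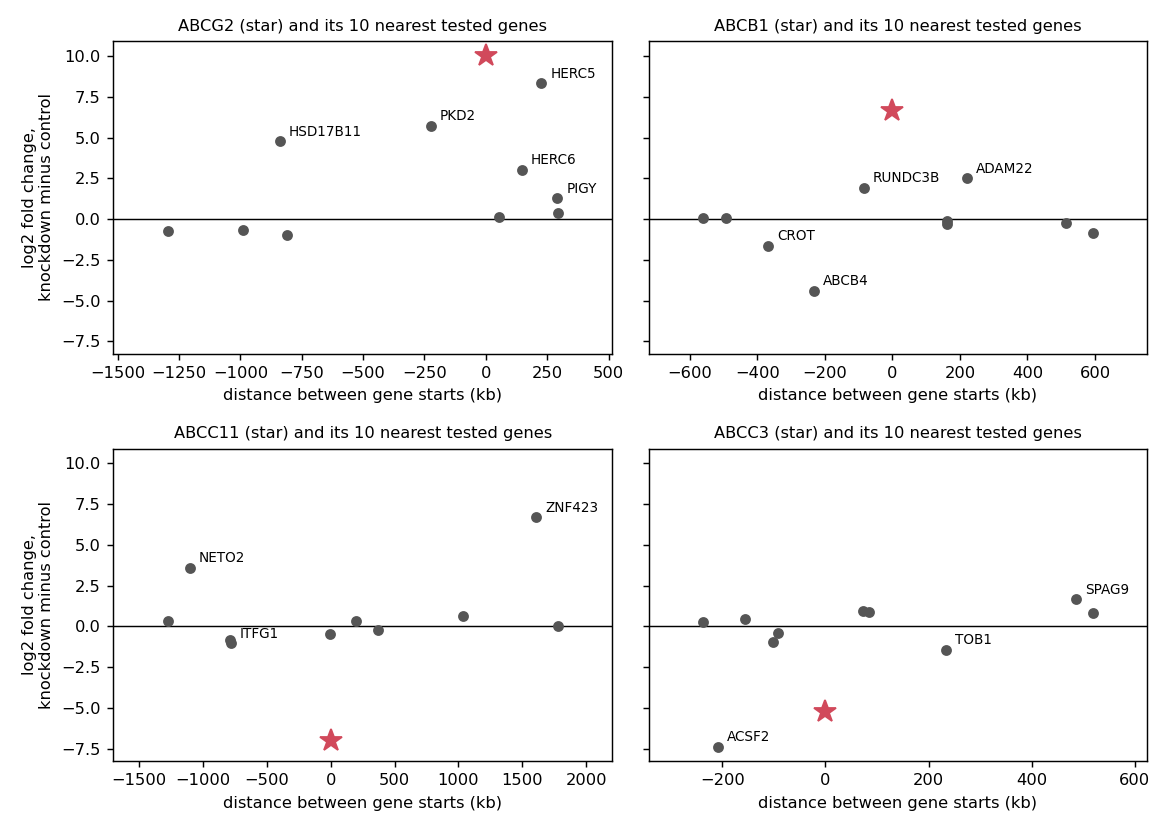
Log2 fold change (knockdown minus control) of ABCG2, ABCB1, ABCC11 and ABCC3 (stars) and of the 10 nearest tested protein-coding genes of each (circles), against the distance between gene starts in kilobases. Names mark neighbours with a fold change of at least 2, called or not; around ABCG2, HERC5, PKD2, HSD17B11 and HERC6 lie high.

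Genes that work beside the transporters were read from the accompanying lists. Among ABC proteins with other names, TAP1, of the peptide transporter that loads major histocompatibility complex class I molecules, rose from 68.5 ± 2.62 to 149 ± 5.16 CPM and its partner TAP2 from 96.3 ± 3.63 to 154 ± 4.28 (SD, n = 4 each). Their log2 fold changes were 1.12 (adjusted p 1.16e-18, edgeR) and 0.68 (adjusted p 1.6e-14, edgeR). CFTR, the chloride channel of the family, had 6 counts over the controls and 7 over the knockdown libraries and was not tested. Of 9 partner proteins, 5 rose and 3 fell, where 39.4% of all genes rose and 37.7% fell. KCNJ11, the channel pore that sulfonylurea receptors regulate, had the largest fall, from 4.94 ± 0.350 to 0.922 ± 0.135 CPM (-2.42, adjusted p 2.61e-13, edgeR). ETF1, the release factor that works with ABCE1, had the largest rise (0.74, adjusted p 1.56e-16, edgeR). The median over the 50 nearest genes was 0.53 for ETF1 and -0.32 for KCNJ11, and the part of this regional shift was not tested for them.

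Of 12 tested regulators of drug pump transcription, 6 rose and 5 fell, against 39.4% and 37.7% of all genes. PPARA, a fatty acid-sensing nuclear receptor, had the largest rise, from 7.74 ± 0.452 to 29.5 ± 2.08 CPM (1.93, adjusted p 2e-18, edgeR). ESR1, the oestrogen receptor, had the largest fall from a low level, with 120 counts over the controls and 4 over the knockdown libraries (adjusted p 1.23e-10, edgeR). The list of drug uptake carriers holds solute carriers that take up or extrude drugs without ATP, so its counts do not speak of uptake alone. It gave 9 higher and 1 lower of 11 tested, where 39.4% and 37.7% of all genes were called. All 9 rises were at least 2-fold, against 14.9% of all genes, and the median log2 fold change was 3.02 against 0.02. Of the 9, SLCO2B1, SLC47A1, SLCO1A2, SLCO3A1 and SLCO4C1 had only 1, 8, 10, 16 and 22 counts over the controls. These passed the filter on low counts only through the knockdown group, and carriers low in both groups were not tested. The size of the rises and the median therefore depend in part on the filter. SLCO2B1, an organic anion carrier, had 1 count over the controls and 98 over the knockdown libraries, the largest rise at 1 CPM or more. SLCO2A1, the prostaglandin carrier, had the largest fall, with 188 and 40 counts. SLC29A1, the nucleoside carrier ENT1, was singled out after its value was seen, for the highest level in the list: it rose from 48.6 ± 2.00 to 394 ± 9.68 CPM (SD, n = 4 each; 3.02, adjusted p 7.35e-28, edgeR).

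**Figure D5:**
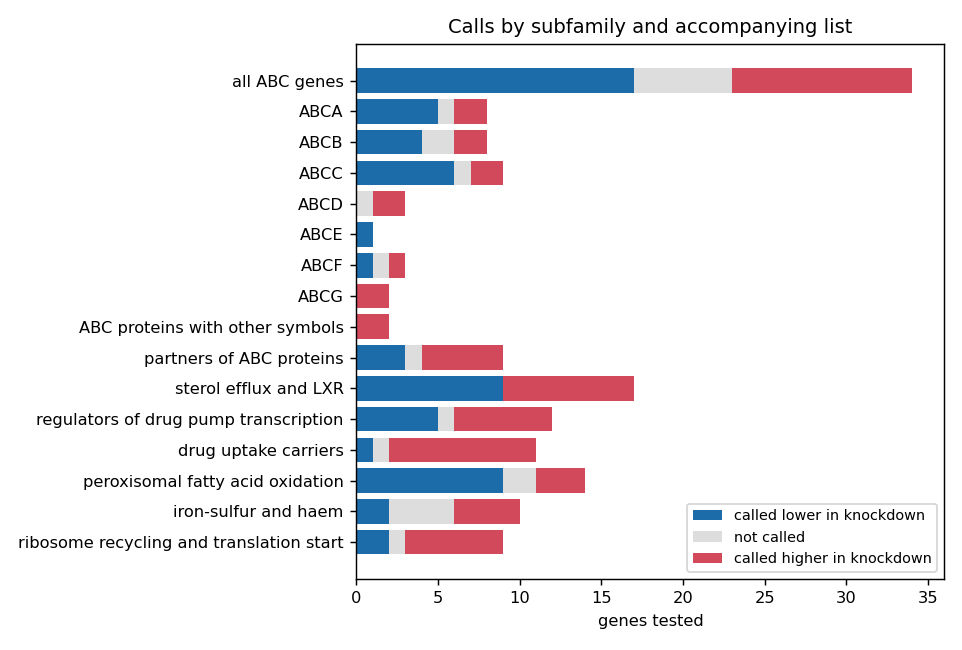
Number of tested genes called lower (blue), not called (grey) and called higher (red) in knockdown for all ABC genes, each subfamily and each accompanying list. The list of drug uptake carriers, which also holds extruders, is mostly red (9 of 11) and peroxisomal fatty acid oxidation mostly blue (9 of 14).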

How the data were processed

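RNA from SKBR3 cells was extracted with Trizol and sequenced as paired-end reads of 101 bases, per the labels' protocols. The authors deposited whole read counts per gene. The submitters' processing notes name FastQC, Salmon 1.9, DESeq2 3.16 and hg38 without saying what each was used for. If the counts are rounded Salmon estimates, reads of overlapping or near-identical genes were divided by estimation. The use of strand is not given in the sources used here. Groups come from the sample titles, with 4 libraries each. All 30434 rows of the table name a gene, and none has under 2 counts in total.

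Counts were tested in R 4.3.3 with edgeR 4.0.16: filterByExpr (minimum 10 counts, total 15), TMM scaling, glmQLFit with robust estimation, glmQLFTest, and Benjamini-Hochberg adjustment over 16430 genes at 0.05. The biological coefficient of variation was 4.56%. CPM is the count over the TMM-scaled total. Standard errors come from the spread of log2 CPM with 0.5 added to each count. Exact two-sided permutations ran over 70 divisions of the libraries. Where a group had 40 counts or fewer in total, the ratio of summed counts has an exact Clopper-Pearson 95% interval, and a group at 0 is set at a floor of 3 counts over the group; both cover counting error only. Positions come from GENCODE 29, matched by Ensembl identifier for 96.5% of genes, and promoter windows from RefSeq. The edgeR fit was tested on simulated data in which few genes changed. In these data 77.1% of genes tested were called, so the simulation does not test the scaling used here.

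Values in every library are given for members called with at least a 2-fold change and 1 CPM in one group, and for ABCB1, ABCC1 and ABCG2; ABCE1 and ABCF1 were added after their values were seen. From each accompanying list the largest called rise and fall at 1 CPM or more are named, and all of TAP1, TAP2 and CFTR. The members and lists were chosen with earlier results of these data known. The list genes KCNJ8, NR1H4, SLC22A3, LUM and CD3E were not analysed here. Some members that enter the counts are not reported here by name. The alternatives tried were scaling by RLE, by upper quartile or by library size, 2 other filters, DESeq2 1.42.0, limma 3.58.1 voom, a replicate block, removal of the median shift of the 50 nearest tested genes, and leaving out each library. Figures used Python 3.11.15 and matplotlib 3.10.9.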

Additional observations from a re-analysis of the deposited data

Results flagged for a closer look

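Among 70 groups of 4 libraries (the tested ABC genes and FOXA1, control and knockdown), 4 held 1 library far from the other 3 by Dixon's test at the 95% level, where chance gives about 3.5. ABCE1 in control replicate 3 was at 180 CPM (179.7), against 214 to 217 in the other controls. ABCD3 in the same library was at 108.2 CPM, against 120.3 to 121.5. ABCD3 in knockdown replicate 4 was at 188.4 CPM, against 201.3 to 202.0. ABCC2 in knockdown replicate 3 was at 6.01 CPM (6.009), against 4.83 to 4.89.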

How the results depend on the processing

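The 12 members called with a change of at least 2-fold, and ABCC1, kept their direction and their side of the threshold in all 220 values they had under the 17 alternatives. Over all tested members, 561 of 575 values stayed so, 8 gained a call, 2 lost one and 4 turned. The 4 that turned did so with the regional shift removed: ABCA2 to 0.013, ABCE1 to 0.161, ABCF1 to -0.154 and ABCF3 to 0.025; the cause was not tested. Without a filter on low counts, where all 45 members enter the fit, 12 were called at least 2-fold lower. The median log2 fold change of the members, -0.074, lay between -0.089 and -0.071 when any 1 library was left out. It was -0.014 with upper-quartile scaling, 0.01 with library size only, -0.193 without a filter and 0.017 at a mean of at least 50 counts, so its sign is not settled.

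The replicate block gave 12453 called genes against 12675 without it, with 17 ABC genes lower and 11 higher in both. Same-numbered libraries did not deviate together (correlations of 0.02, 0.056, -0.031 and -0.001), and 1 of the 4 controls correlated best with its own number. The values thus show no pairing by number, but they cannot tell whether same-numbered libraries were prepared together. Depth limits the 11 members below the filter and the folds of ABCG2, ABCC6, ABCC11, ABCB1 and ABCB4, whose lower group had 30, 24, 23, 7 and 4 counts in total.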
